A study of Capra hircus with 3 samples.

Results

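TNMD, THBS4, CYTL1, CILP and OTOR are 5 genes best known from tendon and cartilage. They were followed in single cells of fetal goat dorsal skin, among 16739 genes of the table. They were chosen by name, because earlier results from these libraries had shown them high at E60, and the question was whether the same cells hold them at E60 and at E90. Their levels and their sharing of cells are therefore given as descriptions. All 5 were in the table and in the RefSeq gene list.

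The skin came from the back of fetuses of the Northern Shaanxi White Cashmere Goat (Capra hircus) at embryonic days 60, 90 and 120, called E60, E90 and E120. Each stage was 1 droplet-based 3′ library of untreated tissue. Fetuses of a stage, at least 2 of them, were mixed before the cells were barcoded. E60 and E90 skin was digested whole with collagenase IV, whereas at E120 follicles were picked out by forceps after that digestion and dissociated with TypLE Express, so stage and preparation cannot be told apart at E120. No stage had a replicate library, no test was possible, and each interval is an exact 95% interval that covers counting error only.

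Tendon is built by tenocytes, which lay down parallel collagen fibrils under the transcription factors scleraxis (SCX) and mohawk (MKX). Cartilage is built by chondrocytes, which depend on SOX9 and fill their matrix with type II collagen (COL2A1) and aggrecan (ACAN). Fibroblasts of dermis and of the fascia beneath it share many matrix genes with both, so a single matrix gene does not name a cell. TNMD encodes tenomodulin, a membrane glycoprotein of tenocytes. THBS4 encodes thrombospondin 4, an adhesive matrix glycoprotein of tendon and muscle that vessel cells also make. CYTL1 encodes a small secreted protein made by chondrocytes. CILP encodes cartilage intermediate layer protein, a secreted matrix protein that binds TGF-beta. OTOR encodes otoraplin, a secreted protein of the inner ear and of cartilage.

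The libraries held 6849 cells at E60, 6931 at E90 and 6896 at E120. Median depth per cell was 8579, 3714 and 13064 unique molecular identifiers (UMIs, single counted RNA molecules). Between 9 and 13 cell barcodes were shared by any 2 libraries, and no cell was removed. At E90, 1 cluster held 4893 of the cells and led with no marker of a named cell type. Counts of 9 epithelial markers summed to 813 CPM even in the dermal fibroblast-like cells of E90. Free RNA is therefore measured below by the share of epithelial-like or myeloid-like cells that carry a UMI of a gene.

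TNMD stood at 205 counts per 1000000 UMIs of the library (CPM; 202 to 209) in the E60 library. The E90 library had it at 6.54 CPM (5.66 to 7.52) and the E120 library at 1.21 CPM (0.997 to 1.45). It had a UMI in 1304 E60 cells, in 144 E90 cells and in 26 E120 cells. The E60 library was far the highest, with up to 217 TNMD UMIs in 1 cell against at most 13 at E90 and 17 at E120. TNMD was 31.4-fold lower (27.3 to 36.3) at E90 than at E60, a log2 ratio of CPM + 1 of -4.77. From E90 to E120 the ratio was -1.77.

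The E60 library had THBS4 at 153 CPM (150.3 to 156) in 1556 cells. The E90 library had it at 36.8 CPM (34.7 to 39.1) in 913 cells and the E120 library at 2.87 CPM (2.54 to 3.23) in 191 cells. Its levels ran downward from stage to stage, with log2 ratios of -2.03 from E60 to E90 and -3.29 from E90 to E120.

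CYTL1 was seen only in the E60 library of these 3. It stood there at 84.7 CPM (82.5 to 87.0) in 823 cells, with up to 78 UMIs in a cell. It had 0 counts among 30277663 UMIs at E90 and 0 among 93403291 at E120. Set against a floor of 3 counts in the whole library, it was 855-fold lower at E90 and 2638-fold lower at E120 than at E60. The exact intervals of these contrasts reach down to 695-fold and 2145-fold. The table lists few genes in 1 or 2 cells of a library, with 6 genes in 1 cell, 66 in 2 and 432 in 3 at E90. A gene at 0 may therefore have been in up to 2 cells before the table was made. Counts in such cells are not bounded by the floor, so none of these folds is a minimum. The same floor of 3, taken as cells, allows a share of E90 cells with a UMI of up to 0.0433%, and the exact interval of 0 in 6931 cells reaches 0.0532%.

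CILP and OTOR ran the other way between the first stages. The E60 library had CILP at 80.3 CPM (78.1 to 82.5) in 1818 cells. The E90 library had it at 121 CPM (117 to 125) in 2420 cells. OTOR was at 87.0 CPM (84.7 to 89.3) in 2217 E60 cells and at 129 CPM (125 to 133) in 2272 E90 cells. Both were higher at E90 by more than their counting error. Their log2 ratios from E60 to E90 were 0.59 and 0.56, beside a median of 0.13 over the 6278 genes that reached 10 CPM in either library. At E120 both were almost gone, with 10 CILP counts in 9 cells and 15 OTOR counts in 4 cells, or 0.107 CPM (0.0513 to 0.197) and 0.161 CPM (0.0899 to 0.265). Their log2 ratios from E90 to E120 were -6.78 and -6.80.

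At E90, 3 of the 5 genes were at least 2-fold lower than at E60, which held for 8.08% of the 6278 genes, while 21.3% were at least 2-fold higher. Since the genes were picked on this contrast, nothing is read from that count. From E90 to E120, THBS4, CILP and OTOR passed the filter of 10 CPM and all 3 were at least 2-fold lower, beside 24.2% of 6357 genes, while 9.99% were at least 2-fold higher. TNMD was under the filter in both libraries, and CYTL1 had no counts. Scaling by the median ratio of abundant genes moves all E90-to-E60 log2 ratios up by 0.27 and those from E90 to E120 down by 0.21. It put 85.0% rather than 72.5% of the calls between E60 and E90 on the higher side, and 18.4% rather than 29.2% of those between E90 and E120. None of the directions given for the 5 genes changed with it.

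**Figure D1:**
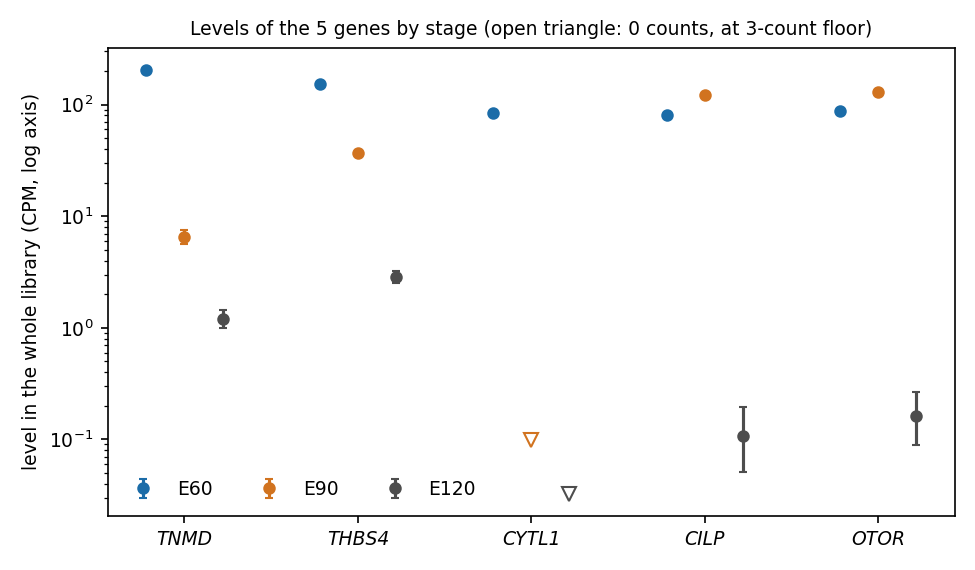
Level of each gene in each library in CPM on a log axis, with exact 95% Poisson intervals where they exceed the point. TNMD, THBS4 and CYTL1 are highest at E60, and CILP and OTOR at E90. The E120 points are lowest for each gene but CYTL1, which has 0 counts at both E90 and E120. Open triangles place the 0 counts of CYTL1 at the 3-count floor of that library, 0.0991 CPM at E90 and 0.0321 CPM at E120.

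The shape of the distribution over cells also differed between stages. At E60 the 68 cells richest in TNMD, 1% of the library, held 39.1% of its UMIs, and the like shares were 39.3% for THBS4 and 39.3% for CYTL1. CILP and OTOR were spread wider, with 16.1% and 17.0% in their richest 68 cells. At E90 the richest 69 cells held 18.5% of THBS4, 13.7% of CILP and 21.8% of OTOR UMIs. For TNMD they held 62.1%, of 198 UMIs in only 144 cells, and a share over so few cells is high by construction. After every cell was thinned to 2000 UMIs, the share of cells with a TNMD UMI was 11.3% at E60 and 1.18% at E90, beside 19.0% and 2.08% before thinning. For OTOR the thinned shares were 12.8% and 18.5%, beside 32.4% and 32.8%.

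Whether 2 genes sit in the same cells was read from the number of cells with a UMI of both. That number was divided by the number expected if the genes were placed independently within 10 classes of UMI depth. At E60 all 10 pairs were above 1, from 1.33 to 2.73. TNMD and CYTL1 shared 439 cells where 161 were expected, a ratio of 2.73 (2.48 to 2.99). THBS4 and CYTL1 shared 497 against 194, or 2.56 (2.34 to 2.79). CYTL1 and CILP shared 509 against 223, or 2.28 (2.09 to 2.49), and TNMD and CILP 771 against 352, or 2.19 (2.04 to 2.35). These 4 of 10 pairs reached a ratio of 2.

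Few genes of the E60 library reached that ratio with any member. The share was 1.84% of 8663 genes for TNMD, 1.71% for THBS4, 2.47% for CYTL1 and 1.19% for CILP. It was 0% for OTOR, so a pair with OTOR under 2 tells little. Pairs with OTOR were at the lower end at E60. TNMD and OTOR stood at 1.41 (1.30 to 1.53), CYTL1 and OTOR at 1.54 (1.39 to 1.69), and both THBS4 and CILP at 1.33 with OTOR. TNMD with THBS4 stood at 1.73 (1.59 to 1.89) and THBS4 with CILP at 1.53 (1.42 to 1.66).

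The levels show the same sharing. In E60 cells with a CYTL1 UMI, TNMD stood at 881 CPM, and in the others at 111 CPM. THBS4 stood at 841 CPM in the cells with CYTL1 and at 58.0 CPM elsewhere. Both genes were thus higher in the cells with CYTL1. OTOR stood at 140.4 CPM in cells with TNMD and at 74.2 CPM in the others, a smaller contrast.

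At E90 none of the 6 pairs that could be measured reached 2. TNMD and THBS4 shared 21 cells against 19.7, a ratio of 1.07 (0.661 to 1.63). TNMD and CILP stood at 1.05 (0.793 to 1.37), and TNMD and OTOR at 0.867 (0.625 to 1.17). For TNMD the counted overlap was what independent placement gives, within counting error. THBS4 with CILP stood at 1.22 (1.10 to 1.35), THBS4 with OTOR at 1.19 (1.07 to 1.32), and CILP with OTOR at 1.15 (1.07 to 1.22), the last from 918 shared cells against 802. The intervals of these 3 pairs lay above 1. At E90 the background shares of genes at 2 or more were 1.56% of 8472 genes for TNMD, 0.0354% for THBS4 and 0% for CILP and for OTOR. For pairs with CILP or OTOR, staying under 2 therefore tells little.

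The 3 pairs among THBS4, CILP and OTOR had higher ratios when only stronger signal was counted. With at least 2 UMIs of a gene asked of a cell, THBS4 and OTOR shared 39 cells against 18.2, or 2.14 (1.52 to 2.93). THBS4 and CILP stood at 1.97 (1.38 to 2.73) and CILP and OTOR at 1.76 (1.48 to 2.07) on that count. TNMD shared 0 such cells with CILP and 0 with OTOR, where 2.82 and 2.77 were expected. After thinning to 2000 UMIs, TNMD and THBS4 shared 12 cells against 5.69, or 2.11 (1.09 to 3.68).

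**Figure D2:**
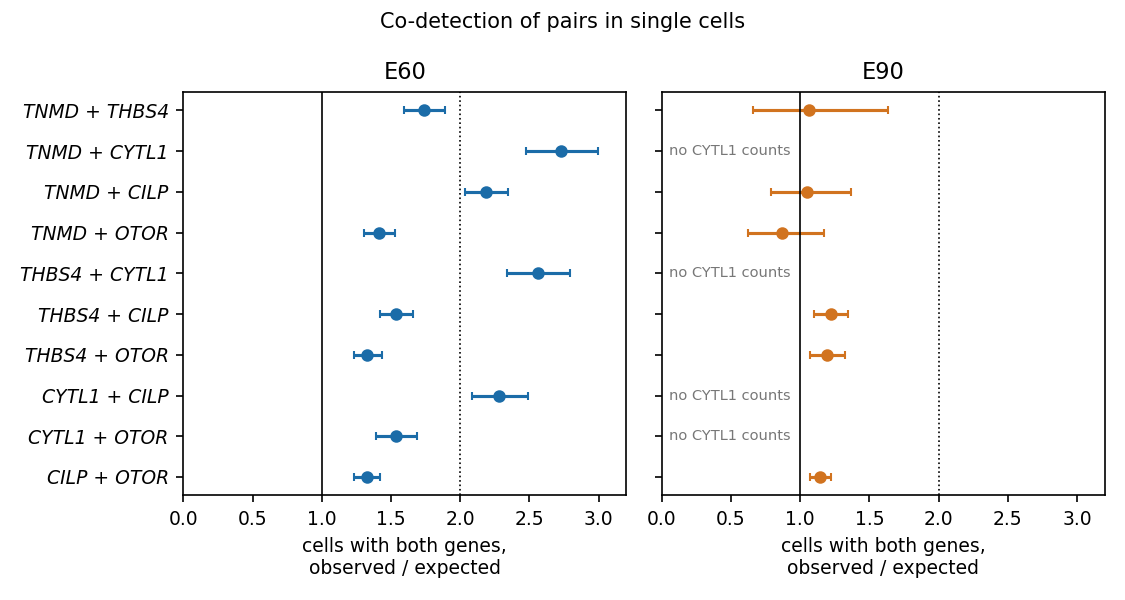
Cells with a UMI of both genes over the number expected from their shares within 10 depth classes, at E60 and at E90, with 95% Poisson intervals of the shared number. The solid line marks 1 and the dotted line 2. All 10 E60 pairs lie above 1 and 4 above 2, while the 6 E90 pairs lie between 0.867 and 1.22.

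Counted per cell, the E60 library had a group of cells with most of the genes at once. All 5 genes had a UMI in 150 cells, where 3.89 were expected, and 4 of them in 329 cells, where 68.1 were expected. Cells with none numbered 2644 against 1909. The 150 cells had a median depth of 9058.5 UMIs, near the library median of 8579. At E90, where CYTL1 could not take part, 4 cells had the other 4 genes against 2.54 expected, and 197 cells had 3 genes against 132.

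**Figure D3:**
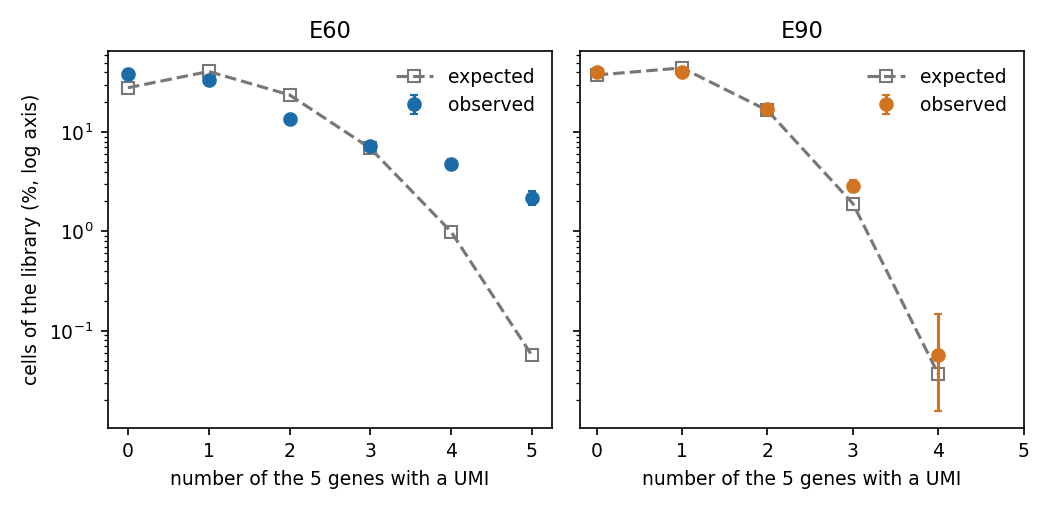
Share of cells, on a log axis, by how many of the 5 genes had a UMI, at E60 and E90. Points are observed shares with exact binomial 95% intervals and squares the shares expected if the genes were placed independently within 10 depth classes. At E60 the observed share exceeds the other at 4 and 5 genes, 4.80% against 0.994% and 2.19% against 0.0568%, whereas at E90 they differ less, with 2.84% against 1.91% at 3 genes.

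To see which cells these were, all cells were clustered with the 5 genes left out. A cluster was named only from fixed marker genes. At E60 the genes met in 4 clusters, here called by their leading genes. They were a tendon-like cluster of 186 cells led by COL2A1, the keratan sulfate proteoglycan gene KERA and TAC1; a second tendon-like cluster of 119 cells led by NMU and FBLN7 with the mitotic genes ASPM, KIF23 and PLK1; dermal fibroblast-like cells with SEMA3C, SERPINF1 and SMOC2, 492 in number; and dermal fibroblast-like cells with CCL11, MGP and SFRP1, 331 in number. Together these 1128 cells were 16.5% of the library. They held 94.7% of the TNMD UMIs, 94.3% of CYTL1, 84.9% of THBS4 and 69.5% of CILP, but 38.8% of OTOR.

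TNMD was highest in the COL2A1 and KERA cluster, at 4026 CPM (3931 to 4123) and in 91.9% of its cells. It stood at 935 CPM in the SEMA3C fibroblasts, at 931 CPM in the mitotic tendon-like cluster and at 234 CPM in the CCL11 fibroblasts. The middle 2 of these do not differ beyond counting error, with intervals of 905 to 965 and 882 to 983 CPM. In every other E60 cluster of at least 50 cells TNMD stood between 6.68 and 48.3 CPM.

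THBS4 was highest in the COL2A1 and KERA cluster too, at 2969 CPM (2888 to 3052) and in 99.5% of its cells. It stood at 852 CPM in the mitotic cluster and 575 CPM in the CCL11 fibroblasts, but at 109 CPM (99.3 to 120.0) in the SEMA3C fibroblasts. That cluster was among the higher of the 4 for TNMD and the lowest of the 4 for THBS4. CYTL1 led in the COL2A1 and KERA cluster at 988 CPM (941 to 1036), followed by the CCL11 fibroblasts at 600.4 CPM. It stood at 309.5 CPM in the SEMA3C fibroblasts and 299 CPM in the mitotic cluster, which do not differ beyond counting error.

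CILP had another order. It was highest in the SEMA3C fibroblasts at 401 CPM (382 to 421) and in the CCL11 fibroblasts at 379.5 CPM (358 to 402), whose intervals overlap, and stood at 295 CPM and 250.4 CPM in the tendon-like clusters. OTOR was highest in the CCL11 fibroblasts at 324 CPM (304 to 345). Next came the SEMA3C fibroblasts at 197 CPM (184 to 212) and the fibroblasts with DKK1 and CXCL14 at 181 CPM (173 to 190), 1109 cells that held 28.8% of the OTOR UMIs. In those cells THBS4 stood at 40.9 CPM (36.8 to 45.3), in 23.1% of them, but TNMD stood at 6.68 CPM and CYTL1 at 4.01 CPM. OTOR thus had a place at E60 that TNMD and CYTL1 did not have.

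Of the 150 cells with all 5 genes, 53 lay in the COL2A1 and KERA cluster, 42 among the CCL11 fibroblasts, 40 among the SEMA3C fibroblasts and 12 in the mitotic cluster. They made up 28.5% (22.1 to 35.6) of the first, 12.7% (9.30 to 16.8) of the second and 8.13% (5.87 to 10.9) of the third. Within a cluster where nearly every cell holds a gene, as with TNMD and THBS4 in the COL2A1 and KERA cluster, the ratio cannot leave 1 by much and tells nothing of sharing. Among pairs not bound in that way, THBS4 and CYTL1 stood at 1.41 (1.12 to 1.75) within the SEMA3C fibroblasts. No other pair read within the SEMA3C fibroblasts, the CCL11 fibroblasts or the COL2A1 and KERA cluster had an interval that left out 1. Within the SEMA3C fibroblasts THBS4 and OTOR stood at 0.949 (0.759 to 1.17). Within the CCL11 fibroblasts TNMD and CYTL1 stood at 1.02 (0.803 to 1.28), and CYTL1 and OTOR at 1.08 (0.911 to 1.27).

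The background of these genes at E60 was read in cells that should lack them. In 118 myeloid-like cells of median depth 8787.5, a UMI was found for TNMD in 7.63%, for THBS4 in 4.24%, for CYTL1 in 4.24%, for CILP in 7.63% and for OTOR in 20.3%. In the largest fibroblast cluster, 2121 cells of median depth 8423, the shares were 6.60%, 4.34%, 3.44%, 13.4% and 20.1%. TNMD and CYTL1 there were below the myeloid-like share and are read as background. THBS4 lay within the interval of that share, 1.39 to 9.61%. OTOR was near the myeloid-like share. In 139 endothelial-like cells, however, OTOR was in only 8.63% (4.54 to 14.6), at a median depth of 16246. The share of OTOR thus differed between these reference cells, and a level above background in the large fibroblast cluster is not settled. The 4 clusters named above lay far over the myeloid-like share for TNMD, with a UMI in 35.3 to 91.9% of their cells.

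Outside the 4 clusters, THBS4 was also found in other fibroblast-like E60 cells. It stood at 51.0 CPM in 1 such cluster of 425 cells and at 30.5 CPM in another of 340. It was in 36.2% and 22.4% of their cells, and OTOR stood higher there, at 130 and 40.3 CPM. In endothelial-like cells THBS4 had a further site at E60, where the other 4 genes were lower. In 139 endothelial-like E60 cells it stood at 172 CPM (156 to 190) and in 69.1% of the cells, at a median depth of 16246 UMIs. CILP stood at 28.6 CPM there, OTOR at 10.2 CPM, CYTL1 at 20.5 CPM and TNMD at 22.6 CPM. At E90 the site was not set apart in that way. THBS4 stood at 61.4 CPM (37.5 to 94.9) in 84 endothelial-like cells, an interval that overlaps that of the large unnamed cluster, 34.2 to 39.6 CPM, and OTOR and CILP stood higher there, at 126 and 70.7 CPM. At E120 it stood at 44.4 CPM (36.9 to 52.9) in 364 endothelial-like cells, and those 364 cells held 46.6% of all THBS4 UMIs. An unnamed cluster led by RGS5, a gene of mural cells around vessels, had THBS4 at 83.2 CPM (71.6 to 96.3) in 225 E60 cells and 67.2 CPM (43.9 to 98.5) in 65 E120 cells. In those E60 cells THBS4 was not set apart, since CILP stood at 98.0 CPM (85.2 to 112) and TNMD at 48.3 CPM. CILP had a further site at E60 in 397 unnamed cells led by ANGPT1 and ACTA2, at 136 CPM (123 to 149), where CYTL1 stood at 5.04 CPM.

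The name tendon-like rests on MKX, FMOD, KERA and CHODL, and the data carry it only in part. MKX was in 88.7% and the collagen-binding proteoglycan gene FMOD in 99.5% of the COL2A1 and KERA cluster. SCX had 4 counts in the whole E60 library, and all 4 lay in that cluster. COL2A1 was in 76.9% of its cells, but SOX9 had 0 counts there, ACAN had 6 and the tendon and cartilage matrix gene COMP had 21. Neither the full chondrocyte set nor the full tenocyte set was therefore present. The dermal fibroblast markers were summed at 24194 CPM in the cluster, 7 of 8 being found, so its cells carried general fibroblast genes as well. In the CCL11 and SEMA3C fibroblasts the fascia markers summed to 2952 and 2527 CPM, beside 649 CPM in the whole E60 library. Their dermal fibroblast markers summed to 17154 and 34104 CPM, beside 11161 CPM. The name dermal fibroblast-like therefore does not place these cells in dermis rather than fascia.

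**Figure D4:**
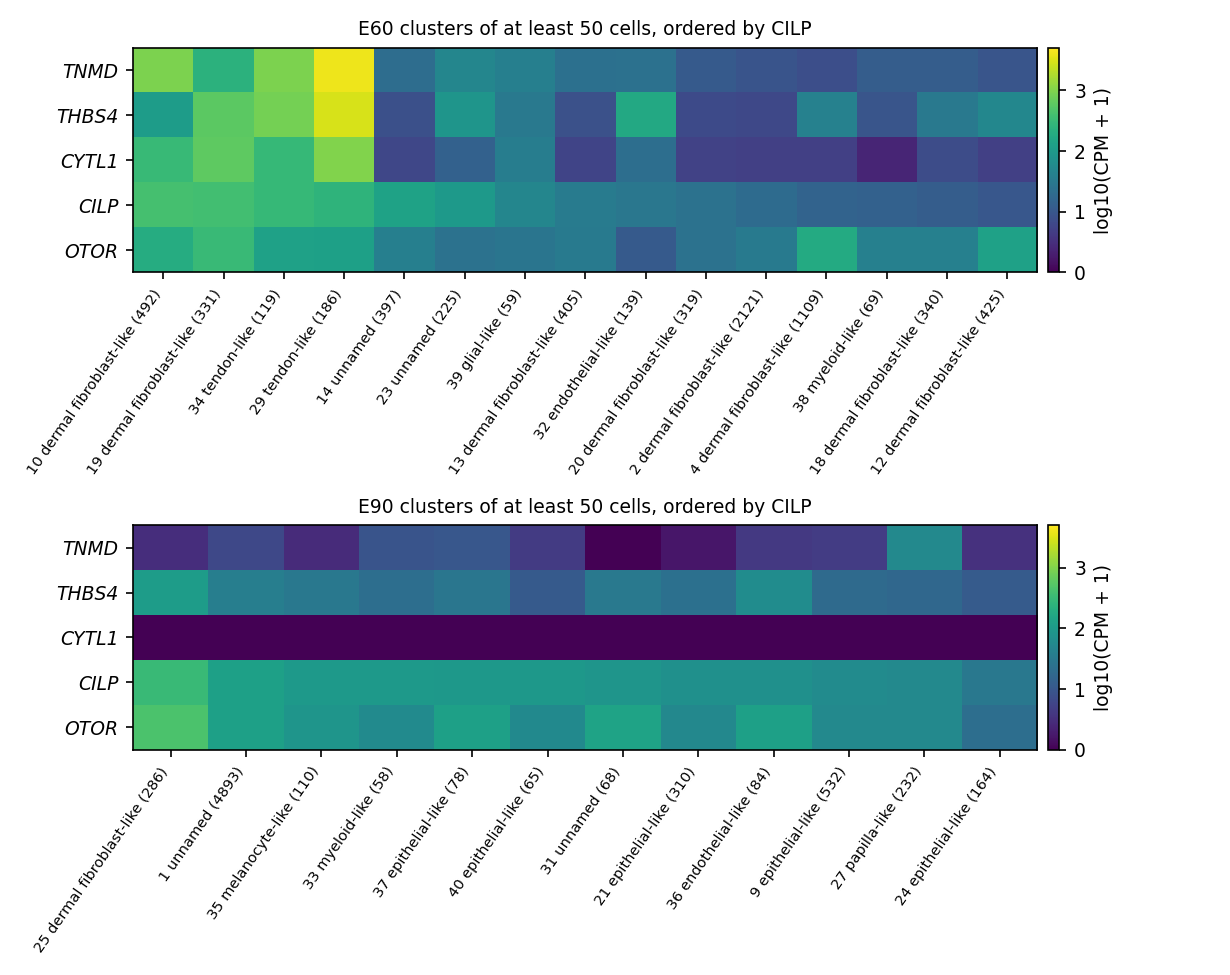
Level of each gene as log10(CPM + 1) in each cluster of at least 50 cells, at E60 above and E90 below, with cluster number, class and cell number on the horizontal axis and clusters ordered by CILP. At E60 the 4 clusters on the left hold all 5 genes, with TNMD at 4026 CPM in the brightest cell. At E90 the cluster on the left leads THBS4, CILP and OTOR, TNMD leads in the papilla-like cluster near the right, and the CYTL1 row is 0.

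At E90 the genes were parted. THBS4, CILP and OTOR all led in 1 cluster of 286 dermal fibroblast-like cells, whose leading genes were COCH, FNDC1, CCBE1 and NDNF. THBS4 stood there at 108 CPM (94.3 to 124), CILP at 323 CPM (299 to 349) and OTOR at 450.4 CPM (421 to 481). TNMD stood there at 2.02 CPM (0.549 to 5.16), in 3 cells. Its highest level was 54.9 CPM (42.6 to 69.8) in 232 dermal papilla- or condensate-like cells, the mesenchymal cells that gather under a growing follicle, led by BMP3 and SPON1.

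In the papilla-like cluster THBS4 was in 7.76% of cells, CILP in 23.7% and OTOR in 17.2%, at a median depth of 4822.5. In all 1149 epithelial-like E90 cells, at 4214, the shares were 8.18%, 25.1% and 20.4%. The 3 genes were thus at or below these pooled shares in the papilla-like cells, and TNMD, at 8.62% against 1.39% (0.798 to 2.25), was above. The epithelial-like clusters were uneven. In 164 of their cells, of median depth 6874.5, CILP stood at 29.7 CPM (20.9 to 40.9) and OTOR at 20.9 CPM (13.6 to 30.6). In the other epithelial-like clusters they stood at 60.7 to 94.2 and 52.9 to 125 CPM. Both stood at 53.3 CPM (41.1 to 67.9) in the papilla-like cells, so a level above background there is not settled.

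Cells with at least 5 UMIs of a gene show the parting most plainly. All 5 such TNMD cells of E90 lay in the papilla-like cluster. All 9 such THBS4 cells lay in the COCH fibroblasts, as did 55 of 61 such CILP cells. OTOR was less tied to that cluster, with 42 of 75 there and 29 in the large unnamed cluster. Of the 185 E90 cells with THBS4, CILP and OTOR together, 50 lay in the COCH fibroblasts, 17.5% (13.3 to 22.4) of them, and 118 in the large cluster, 2.41% (2.00 to 2.88) of it.

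The large unnamed cluster of 4893 cells held 53.5% of the TNMD, 64.4% of the THBS4, 67.3% of the CILP and 63.6% of the OTOR UMIs of E90. A UMI of CILP was in 36.9% (35.5 to 38.3) of its cells and of OTOR in 35.1% (33.7 to 36.4). Both were above the pooled epithelial-like shares at a lower median depth of 3561. In 59 myeloid-like E90 cells, however, CILP was in 32.2% (20.6 to 45.6) and OTOR in 22.0% (12.3 to 34.7), intervals that overlap these. In 1 epithelial-like cluster of 78 cells they were in 28.2% and 38.5% (27.7 to 50.2). A level above background in the large cluster is therefore not settled. For TNMD the share was 2.06% (1.68 to 2.50), whose interval overlaps the epithelial-like one, and no cell had more than 2 UMIs. The number of OTOR counts per CILP count was 1.00 (0.949 to 1.06) in the large cluster and 0.890 (0.703 to 1.13) in the largest epithelial-like one. It was 1.39 (1.26 to 1.54) in the COCH fibroblasts. Median mitochondrial share in the large cluster was 12.7%, and its part in these values was not tested.

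Without the large cluster the 3 pairs kept ratios above 1, namely 1.52 (1.26 to 1.81) for THBS4 and OTOR, 1.43 (1.19 to 1.70) for THBS4 and CILP and 1.29 (1.12 to 1.47) for CILP and OTOR. TNMD and OTOR then stood at 0.511 (0.188 to 1.11). In the 521 dermal-like E90 cells TNMD and OTOR shared 3 cells against 9.65, a ratio of 0.311 (0.0641 to 0.908). The 3 pairs without TNMD stood at 1.14 to 1.19 within those cells, with intervals that included 1. At a coarser clustering, resolution 0.5, all 4 genes led in 1 E90 cluster of 515 cells, so their parting depends on a clustering that separates the COCH fibroblasts from the papilla-like cells.

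The TNMD cells of the papilla-like clusters were a small subset with a profile of their own. At E90, 20 of the 232 cells held 67 TNMD UMIs. Of these UMIs 38 lay in 5 cells, and 6 cells had 1 UMI each. Since 1.39% of epithelial-like E90 cells also had a TNMD UMI, some of the 20 may be background. ACTA2, smooth muscle actin, which is known in the dermal sheath around the follicle and in vessel walls, stood at 1010.3 CPM (842 to 1203) in these 20 cells and at 46.6 CPM (34.7 to 61.2) in the other 212. HAPLN1, which links hyaluronan to proteoglycans, stood at 208 and 14.6 CPM, and COL11A1, a minor fibrillar collagen, at 802 and 194 CPM. ACTA2 and HAPLN1 had been picked for their likeness to TNMD over E90 cells, so these contrasts are descriptions. Papilla markers were mixed in them. SOX18, a transcription factor gene, was in all 20, at 1732 against 2691 CPM, and HHIP, a hedgehog-binding protein gene, stood at 136 against 69.4 CPM. RSPO3 was in 5% against 36.8% of cells, BAMBI stood at 0 against 21.9 CPM and APOD at 56.1 against 172 CPM.

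The same genes were met again in the E120 library, which had no part in that choice. There, 14 of 209 papilla-like cells held 86 of the 113 TNMD UMIs. ACTA2 was in all 14, at 5894 CPM (5440 to 6376) against 95.0 CPM (79.0 to 113) in the other 195. COL11A1 was in all 14 as well, at 2274 (1996 to 2581) against 48.3 CPM, and HAPLN1 stood at 389 (279 to 527) against 10.7 CPM. SHISA3, also picked at E90, had 0 counts in the 14 cells, and GAP43 stood at 37.9 (10.3 to 97.0) against 26.1 CPM, so 2 of the 5 genes picked at E90 showed no such contrast.

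Each of the 8 papilla markers found in the cluster stood lower in the 14 cells, to unequal degrees. RSPO2 and RSPO3, WNT-enhancing signals of the papilla, had 0 counts in them and stood at 1282 and 1220 CPM in the other 195 cells, where 85.6% and 87.7% of cells held them. FGF7, a papilla growth factor, stood at 19.0 against 2140.2 CPM, and BAMBI at 75.8 against 3208 CPM. HHIP stood at 9.48 against 335 CPM. Others were nearer, with APOD in 85.7%, SOX2 in 50% and SOX18 in 35.7% of the 14 cells, at 644 against 1599 CPM, 94.8 against 386 CPM and 94.8 against 174 CPM. Of the mural markers other than ACTA2, RGS5, MYH11 and KCNJ8 had 0 counts in the 14 cells, NOTCH3 stood at 37.9 against 65.9 CPM and TAGLN at 47.4 against 3.83 CPM. Median depths were alike, 6212 UMIs in the 14 cells and 5534 in the rest. These cells are called here only by TNMD, ACTA2 and COL11A1.

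**Figure D5:**
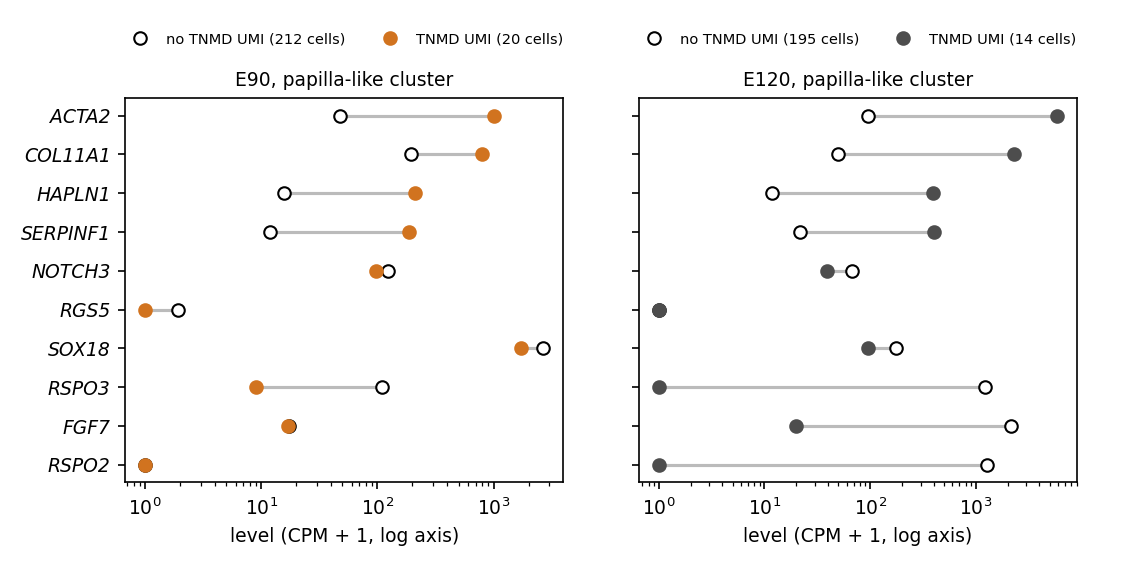
Level of 10 genes, as CPM + 1 on a log axis, in cells with a TNMD UMI (filled) and without (open) of the papilla-like clusters at E90 and E120. ACTA2, COL11A1, HAPLN1 and SERPINF1 are higher in the cells with TNMD at both stages. RSPO2, RSPO3 and FGF7 are far lower in them at E120, where RSPO2 and RSPO3 have 0 counts.

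Little was left of the other genes at E120. Of the 15 OTOR UMIs, 14 lay in 3 of the 7 E120 cells that clustered with the COCH fibroblasts of E90. None of the 4 OTOR cells had a barcode that also occurred at E90. Of the 10 CILP UMIs, 6 lay in 5 papilla-like cells. THBS4 and CILP met in 3 cells against 0.403 expected and TNMD and THBS4 in 4 against 1.16, so 2 of 6 pairs passed a ratio of 2. At these numbers that ratio was common, since 13.7% of 9516 genes reached it with TNMD, 9.12% with THBS4, 19.6% with CILP and 16.6% with OTOR.

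Which other genes went with each member was read from Pearson correlations of log values across all cells of a library, over genes found in at least 100 cells. Cells of a library share depth and free RNA, so r is a description. At E60, over 6849 cells, TNMD went most with SERPINF1, a secreted serpin (r = 0.72), then with COL11A1, the small proteoglycan gene ASPN, the procollagen enhancer PCOLCE and SMOC2, down to 0.62. THBS4 went most with the fibulin gene FBLN7 (0.62), then ANGPTL1, ASPN, COL2A1 and CYTL1 itself (0.57). CYTL1 went most with ASPN (0.67), then ANGPTL1, DLK1, FBLN7 and THBS4. CILP went most with SMOC2 (0.63), then SERPINF1, PCOLCE, ASPN and ZFHX4.

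OTOR stood apart already at E60. Its highest r was 0.26, again with SERPINF1, followed by JUN, the WNT inhibitor gene SFRP1, TMEM132C and PCOLCE. Among the members themselves r at E60 ran from 0.17 for THBS4 and OTOR to 0.57 for THBS4 and CYTL1. The 50 genes most like each member overlapped by 21 to 37 between members.

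At E90, over 6931 cells, the values of r were low. TNMD went most with GAP43, a growth-cone gene (0.14), then HAPLN1, ACTA2, SHISA3 and HAPLN3. THBS4 went most with PENK, which encodes proenkephalin (0.15), and CILP did so too (0.20). OTOR went most with VIM, vimentin (0.21), and the proteoglycan gene OGN was among the first 5 of THBS4, CILP and OTOR. Of the 50 genes most like TNMD, 4 or 5 were shared with those of each other gene, whereas THBS4, CILP and OTOR shared 32 to 34 of 50 with each other. Between E60 and E90 the 50 most like genes of a member shared 8 for TNMD, 4 for THBS4, 11 for CILP and 6 for OTOR.

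Some partners of TNMD stayed with it. SERPINF1, picked at E60, stood at 501 CPM in E60 cells with TNMD and 39.0 in the others. At E90 it stood at 48.5 (33.4 to 68.1) against 2.57 CPM, and at E120 at 172 (126 to 231) against 2.02 CPM. COL11A1 stood at 687 against 70.2 CPM at E60, 243 against 83.2 at E90 and 1175 against 1.76 at E120. ASPN and SMOC2 were not higher in the TNMD cells at E90, with 121 against 192 CPM and 45.6 against 56.1 CPM. At E120 ASPN again was, at 115 (77.5 to 164) against 2.77 CPM, while SMOC2 stood at 15.3 (4.17 to 39.2) against 4.82 CPM, from 4 counts. For CILP, SERPINF1 was at 364 against 40.5 CPM at E60 but at 3.83 (2.76 to 5.18) against 3.47 CPM at E90, where its level in cells with and without CILP did not differ beyond counting error.

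The wider tendon and cartilage programs were read from gene lists, as co-detection with each member over genes found in at least 100 cells. Of 26 tendon genes, 19 could be read at E60 beside the members. With TNMD 5 of 19 reached a ratio of 2, THBS2, KERA, FIBIN and the fibril-associated collagens COL12A1 and COL14A1, and the median was 1.46 beside 0.99 over all genes. With CYTL1 6 of 19 did, with CILP 4, with THBS4 3 and with OTOR 0, beside 2.47%, 1.19%, 1.71% and 0% of all 8663 genes. For TNMD that share was 1.84%. KERA with TNMD stood highest of the list, at 4.36 (3.60 to 5.23). THBS2 and FIBIN were highest with CYTL1, at 3.37 (3.09 to 3.66) and 3.18 (2.81 to 3.59). MKX with TNMD stood at 1.46 (1.35 to 1.57).

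At E90 no tendon gene of 17 reached 2 with any of the 4 genes. Over all 8472 genes the share was 1.56% with TNMD, 0.0354% with THBS4 and 0% with CILP and with OTOR. For the last 3 genes such a count, here and for the lists below, therefore tells little. Medians were 1.10 to 1.13, beside 0.98 to 1.00 over all genes. KERA was down to 5 counts in the library and SCX to 3. MKX stood at 62.3 CPM at E60, 16.8 CPM at E90 and 0.396 CPM at E120. FMOD stood at 109, 16.6 and 1.88 CPM. CHODL, another marker of the list, stood at 25.0 CPM at E60 and 32.1 CPM at E90.

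Of the cartilage list, 9 genes could be read at E60, and COL2A1 alone reached 2, with TNMD (2.93), THBS4 (2.87) and CYTL1 (3.42). It stood at 24.6 CPM at E60, 1.16 CPM at E90 and 0.0749 CPM at E120. SOX9 was met in fewer cells with TNMD than independent placement gives, 24 against 44.0 at E60, and with CYTL1 in 12 against 28.0. At E90, SOX9, which follicle epithelium also uses, stood at 328 CPM, and its ratio with TNMD was 1.00. Of 10 cartilage genes at E90 only HAPLN1 reached 2, with TNMD, at 4.14. ACAN had 14, 51 and 41 counts and COMP 30, 10 and 33 counts in the 3 libraries.

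Of the fascia list 9 genes could be read at E60. SEMA3C, SFRP4 and CCN3 reached 2 with TNMD and with CILP, MFAP5, SEMA3C and SFRP4 with CYTL1, and SFRP4 with THBS4. The highest of the list was SFRP4 with CYTL1, at 5.28 (4.34 to 6.36), and SEMA3C with TNMD stood at 3.43 (3.11 to 3.78). At E90, CCN3 alone of 7 did so, with TNMD, at 2.77 (1.38 to 4.95). Among proteins related to the members, THBS2 and THBS3 reached 2 with TNMD, CYTL1 and CILP at E60, and THBS2 with THBS4. THBS2 stood at 51.6 CPM at E60 and 72.4 CPM at E90, and CNMD, the paralog of TNMD, at 18.6 and 13.0 CPM. How reads shared by such relatives were counted is not given in the sources used here.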

How the data were processed

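The authors deposited 1 table of natural log values, 1 column per cell. Read back from that scale, less 1, the values of each cell sum to 10000, so they are UMI counts scaled to the cell's total; this was read from the values. Cell Ranger 3.0.2 is named in the submitters' processing notes, and the genome build, annotation and filters are not given in the sources used here. The planned analysis had assumed counts. UMI counts were recovered by inverting the transformation, taking the smallest value of each cell as 1 UMI, and 100% of nonzero values came out whole within 0.01. The E60 library had 65049552 UMIs in all, the E90 library 30277663 and the E120 library 93403291. Each column name starts with its stage, per the labels, and all columns had a sample.

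Counts were summed per library or cluster and scaled to CPM, with exact Poisson intervals, and shares carry exact Clopper-Pearson intervals. The difference between stages is log2 of CPM + 1 at the later stage less that at the earlier. Fold differences used a 2-fold threshold over genes with 10 CPM in one of the libraries compared. Clusters came from 2000 variable genes without the 5 members, 30 components, 20 neighbours and Leiden clustering at resolution 1 (leidenalg 0.10.2, igraph 0.11.9, scikit-learn 1.9.0, numpy 2.4.6, scipy 1.17.1, Python 3.11.15). A marker was found in a cluster if 10% or more of its cells held it, at 2 or more times its median level over clusters. Clusters with under 3 markers, led by markers of another class or by mitochondrial or globin genes, far shallower than their library, or with over 50% of a library stayed unnamed. How markers were scored was set with the data in view. The members were left out of the markers used for naming. No cell was removed as a doublet; leaving out the 6% with the highest doublet scores was an alternative.

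The co-detection ratio was tested on simulated data for E60. There, 200 of 8663 genes, drawn from those in fewer cells, were made 4-fold enriched in cells with TNMD. Of those, 99% passed a ratio of 2, against 0% of the rest. The check was run for TNMD at E60 alone, with raised genes in fewer cells than CILP or OTOR. It does not cover pairs with those 2 genes or the E90 library. The text names the 5 members, the 5 genes most correlated with each, leading genes of the clusters, and list genes by counts over those in at least 100 cells, with the 3 highest ratios and SCX, MKX, SOX9, COL2A1, ACAN and COMP whatever their values. FMOD and CHODL levels, THBS2 and CNMD levels, the papilla and mural markers of the TNMD cells, and the genes followed across stages were added after values were seen. The members and the lists were chosen with earlier results of these data known. The RefSeq list of assembly ARS1.2 served for names only, so no coordinates or sequences are given, and MIA, the paralog of OTOR, is not analysed here.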

Additional observations from a re-analysis of the deposited data

How the results depend on the processing

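No paired analysis was possible because each stage was 1 library, and no replicate could be left out. No direction of a stage comparison changed under any of the 7 alternatives run. From E60 to E90, a pseudocount of 10 CPM gave log2 ratios of -3.70 for TNMD, -1.80 for THBS4 and -3.24 for CYTL1, whose ratio follows the pseudocount and was -9.73 at 0.1 CPM. Scaling by the median of ratios gave -4.54 for TNMD, -1.76 for THBS4, 0.85 for CILP and 0.83 for OTOR. Keeping cells of 1000 genes or more whose mitochondrial share was 10% or less gave -4.46, -1.90 and 0.67 for TNMD, THBS4 and OTOR. The mean over cells gave -6.59 for CYTL1 and 0.40 for OTOR, and thinning to 2000 UMIs gave -6.63 and 0.38. From E90 to E120, a pseudocount of 10 CPM gave -0.56 for TNMD, -1.86 for THBS4, -3.70 for CILP and -3.77 for OTOR, and one of 0.1 CPM gave -2.34, -3.64, -9.19 and -8.95. The mean over cells gave -1.23, -2.54, -6.62 and -6.26, and thinning gave -1.21 for TNMD, -2.42 for THBS4 and -6.20 for OTOR.

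Of 10 pairs at E60, 4 reached a ratio of 2. This was 7 after thinning and 9 when 2 UMIs were asked. At a threshold of 1.5 it was 7, and at 4 it was 0. At E90 it was 0 of 6, and 1 each after thinning and with 2 UMIs. It was 0 as well without the cluster that held most E90 cells, an alternative chosen after seeing the data. At E120 it was 2, and 1 each after thinning, with 2 UMIs, in dermal-like cells alone and at a threshold of 4. The share of all genes was taken only at a ratio of 2, with 1 UMI asked and no thinning. The counts under the alternatives therefore have no background beside them, and nothing is read from their size. Apart from the effect of the altered threshold itself, the cause of these shifts was not tested. The largest number of members leading in the same cluster was 3 at E60 and 3 at E90, and 2 to 4 and 3 to 4 over the alternatives. TNMD at E90 rests on 198 counts, at a median depth of 3714 UMIs per cell.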
